A study of Mus musculus with 6 samples.

Results

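The transcripts described here are those of 10 nuclear receptor genes of liver metabolism, Nr1i2, Nr1i3, Nr5a2, Nr1h3, Rxra, Ppara, Ppard, Pparg, Thrb and Nr3c1, chosen by name from a deposited expression table of 14499 genes. Each name had 1 row in the table, and all 10 genes passed the filter on low values. The libraries were made from total liver RNA of 10-week-old mice on a mixed C57Bl/6; 129Sv background, all with 2 weeks of DDC injury. In 3 libraries (Arid1a_KO_DDC) the mice carried a hepatocyte-specific knockout of Arid1a, and in 3 (WT_DDC) they were wild type. DDC is a porphyrinogenic compound that injures hepatocytes and bile ducts, and the protein made from Arid1a binds DNA within the BAF remodeller of chromatin. The Cre driver is not given in the sources used here, and other liver cell types keep the gene. No uninjured liver is part of the comparison, so it asks how receptor transcripts in injured liver differ by genotype. Whether the 3 libraries of a genotype are 3 mice is not stated in the labels, and each p-value measures the spread between these libraries.

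Nuclear receptors are transcription factors that carry a zinc-finger DNA-binding domain and, in most cases, a pocket for a small lipid-soluble ligand. Many of those in the liver bind DNA as heterodimers with a retinoid X receptor and, when their ligand arrives, exchange corepressors for coactivators, some of which recruit chromatin remodelling complexes. Through them bile acids, oxysterols, fatty acids, drugs, thyroid hormone and glucocorticoids set the hepatic programmes of detoxification, lipid handling and fasting.

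The values are FPKM (fragments scaled by gene length and by the mapped fragments of the library), which lets genes be set side by side. A library held 11280 to 11712 genes at 1 FPKM or more, and the depth of the libraries relative to WT_DDC replicate 1 was estimated at 0.9 to 1.15, with the absolute depth unknown. Arid1a itself was at 6.61, 5.01 and 3.81 FPKM in the knockout livers and at 7.85, 5.48 and 5.98 FPKM in the wild-type livers (limma adjusted p = 0.678), and because undeleted exons and non-hepatocytes contribute to these values they do not check the labels. Replicate 1 of both genotypes stood apart from the other libraries. Its libraries carry the numbers L0566 and L0567 where the others carry L0602 to L0605, and its Y-linked Ddx3y was at 0.0227 FPKM in the knockout and 0.0527 FPKM in the wild-type library, against 9.27 to 11.3 FPKM in the other 4, so that in each genotype replicate 1 came from another animal than replicates 2 and 3. Each receptor's difference is therefore also given for replicate 1 and for replicates 2 and 3 apart.

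No receptor transcript passed the test for a genotype difference. By limma on log2(FPKM + 1), 0 of the 10 members had an adjusted p under 0.05, where 0.49% of the 11839 genes tested did, and 0 had an unadjusted p under 0.05, where 11.1% of all genes did. With a term for the library number, which takes up the shift of replicate 1, 1 member had an unadjusted p under 0.05, Pparg, where 16.9% of all genes did, and still 0 had an adjusted p under 0.05. In libraries L0602 to L0605 alone there were 2, Pparg and Nr1i2, where 18.1% of all genes did. Without that term the 10 adjusted p-values lay between 0.66 and 0.966. The knockout and wild-type ranges overlapped for all 10, while 16.6% of all genes tested had ranges that did not overlap. Exact two-sided permutation tests gave p = 0.3 to 0.9 for the 10 genes, and 3 against 3 libraries cannot give less than 0.1. The median log2 difference of the 10, knockout minus wild type, was 0.13 with 7 above and 3 below 0, beside 0.0034 over all genes. Their median absolute difference was 0.18 against 0.19 over all genes. These p-values do not show that the levels were the same, and the 95% intervals given with each gene are those of the fit with no term for the library number. In bulk tissue, fewer cells of a type and less RNA per cell cannot be told apart.

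**Figure D1:**
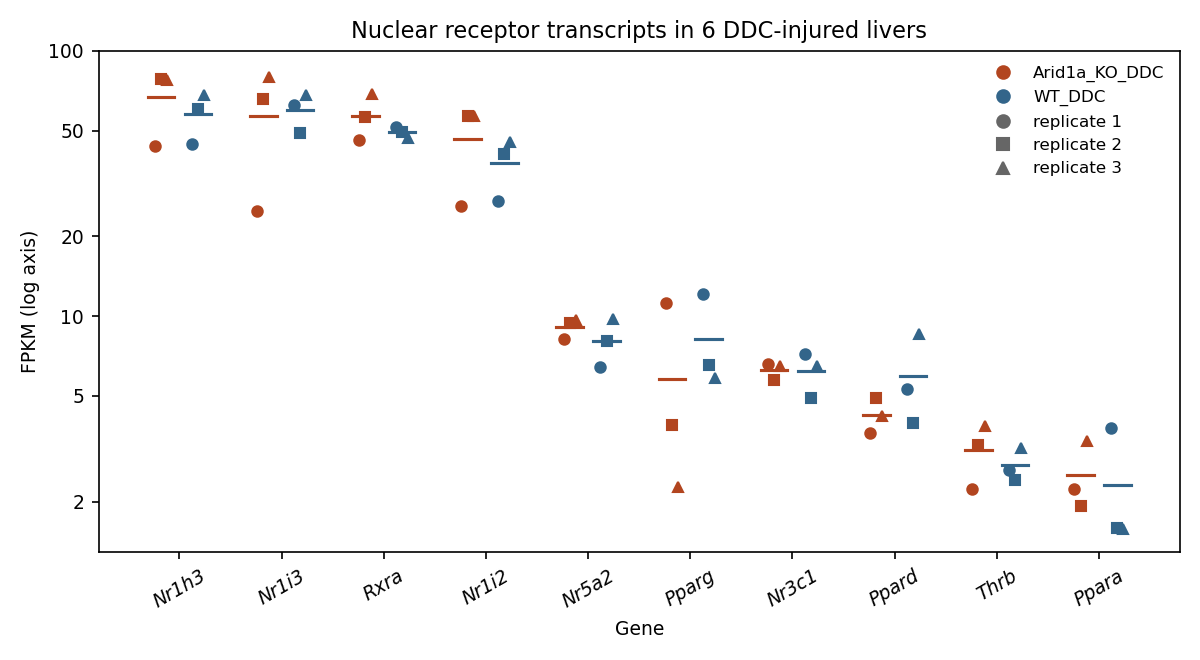
FPKM (log axis) of the 10 receptor transcripts in each library, knockout left of wild type, with the symbol giving the replicate and a bar at the mean of the 3 libraries. The points of Nr1h3, Rxra, Nr1i3 and Nr1i2 lie between 24.9 and 79.5 FPKM and those of the other 6 genes between 1.57 and 12.1 FPKM, and every gene's knockout and wild-type points overlap in range.

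The receptors fell into an abundant and a scarce set in both genotypes. In knockout livers Nr1h3 averaged 66.7 FPKM, Rxra 57.0, Nr1i3 56.7 and Nr1i2 46.5, and the next gene, Nr5a2, was at 9.07 FPKM with a range that did not reach that of Nr1i2. In wild-type livers Nr1i3 averaged 59.8 FPKM, Nr1h3 57.7, Rxra 49.3 and Nr1i2 37.7, and the next gene was Pparg at 8.17 FPKM. Within the abundant set the neighbours' ranges overlapped, except that Rxra lay above Nr1i2 in every wild-type library. The scarce set held Nr5a2, Nr3c1, Pparg and Ppard, then Thrb and last Ppara in both genotypes. Thrb and Ppara did not differ beyond their spread, and neither did Nr3c1 and Pparg in knockout livers or Pparg, Nr5a2, Nr3c1 and Ppard in wild-type livers. The abundant genes exceeded 87% to 90.6% of the table's genes in mean FPKM, and Ppara exceeded 33.6%.

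To show the sequence at the start of genes described below, the bases before the RefSeq start (GRCm38.p6, 5′ to 3′ on the gene's strand) are printed for both xenobiotic receptors and for Nr1h3 and Pparg, whose levels set replicate 1 apart. The Nr1h3 stretch is cut where an annotated exon begins, and that of Pparg is before the last of its 3 starts, the one that begins the gamma-2 form. Capitals mark the E-box letters CACGTG.
Nr1i2 (chr16:38294825-38295074, - strand): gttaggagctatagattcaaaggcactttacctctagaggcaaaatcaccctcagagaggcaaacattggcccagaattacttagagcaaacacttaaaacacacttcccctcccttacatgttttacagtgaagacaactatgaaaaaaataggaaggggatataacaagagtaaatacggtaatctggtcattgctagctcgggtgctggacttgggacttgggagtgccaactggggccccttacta
Nr1i3 (chr1:171213720-171213969, + strand): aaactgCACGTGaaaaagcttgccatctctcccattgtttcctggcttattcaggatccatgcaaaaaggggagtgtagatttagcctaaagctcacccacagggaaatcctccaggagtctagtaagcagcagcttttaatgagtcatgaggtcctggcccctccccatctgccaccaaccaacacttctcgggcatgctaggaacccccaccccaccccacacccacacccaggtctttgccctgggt
Nr1h3 (chr2:91195152-91195366, - strand): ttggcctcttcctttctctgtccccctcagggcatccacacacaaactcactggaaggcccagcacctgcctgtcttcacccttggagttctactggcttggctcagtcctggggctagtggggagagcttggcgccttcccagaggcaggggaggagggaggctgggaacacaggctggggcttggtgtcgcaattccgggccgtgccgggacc
Pparg (chr6:115421816-115422065, + strand): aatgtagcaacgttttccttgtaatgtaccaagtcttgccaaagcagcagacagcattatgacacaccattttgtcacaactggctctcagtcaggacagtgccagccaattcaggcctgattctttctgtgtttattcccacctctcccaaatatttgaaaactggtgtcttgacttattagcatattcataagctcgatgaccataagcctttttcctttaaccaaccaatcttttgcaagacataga
Over the 250 bases before 15 starts of the 9 genes found in the RefSeq table, read on both strands, 2 held CACGTG and 5 held AGGTCA, the core hexamer that most of these receptors bind. Of all 32851 windows of that length in the table, 6.02% held CACGTG and 14% held AGGTCA. The only CACGTG among the 4 printed stretches is in that of Nr1i3, and none of the 4 holds AGGTCA. The whole windows before Pparg starts 1 and 2, which are not printed, each held 1 AGGTCA and were 82.4% and 63.6% G and C. Over the whole windows of 250 bases, G and C made up 40.8% before this Pparg start, 44% before Nr1i2, 53.2% before Nr1i3 and 63.2% before Nr1h3, beside a median of 52.4% over all windows. A match is a description of letters, and FPKM per gene does not tell starts apart.

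Among the xenobiotic receptors, Nr1i2 encodes PXR, which is activated by many drugs and steroids and induces detoxifying enzymes (chromosome 16, 38248323 to 38294824 on GRCm38, protein coding). Its level was 25.9, 56.9 and 56.6 FPKM in knockout replicates 1, 2 and 3 and 27.1, 40.8 and 45.2 FPKM in the wild-type replicates. Replicate 1 was the lowest library of each genotype, and in replicates 2 and 3 both knockout libraries lay above both wild-type ones. Knockout minus wild type came to a log2 difference of 0.24 (SE 0.34, 95% interval -0.58 to 1.06, limma adjusted p = 0.835), with -0.06 in replicate 1 and 0.39 in replicates 2 and 3. With the library number as a term the interval was -0.09 to 0.58. Across the 4 libraries of replicates 2 and 3, 6 of the 10 members had genotype ranges that did not overlap, a share near the 51.8% of all genes tested. Such ranges together with a replicate 1 difference of the other sign were found for 5 of the 10 members, these 6 without Pparg. The share over all genes tested was 19.7%.

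Nr1i3 encodes CAR, the receptor of phenobarbital-like inducers, and was the member with the widest spread between knockout libraries on the FPKM scale (chromosome 1, 171213970 to 171220701). It was at 24.9, 65.6 and 79.5 FPKM in knockout libraries, against 62.5, 48.9 and 68.0 FPKM in wild-type libraries. Knockout replicate 1 was the lowest and knockout replicate 3 the highest of all 6. Its log2 difference was -0.22 (SE 0.42, interval -1.21 to 0.77, limma adjusted p = 0.881). It was -1.29 in replicate 1 and 0.32 in replicates 2 and 3, and without knockout replicate 1 it changed sign to 0.28. The exons of Nr1i3 share 3304 of their 4414 bases with Tomm40l on the opposite strand, and no source used here states that strand was used, so reads of the pair cannot be told apart there. Tomm40l was at 9.76, 25.8 and 30.9 FPKM in knockout libraries, against 15.6, 14.8 and 26.7 FPKM in wild-type libraries. The ratio of Nr1i3 to Nr1i2 was 0.959, 1.15 and 1.4 in knockout and 2.31, 1.2 and 1.5 in wild-type libraries, with overlapping ranges.

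Differences of PXR and CAR target transcripts lay on both sides of 0, and none passed the test. Of 20 tested targets 0 rose and 0 fell, against 0.135% and 0.355% of all genes, with 11 differences above and 9 below 0 and a median of 0.11. Gsta2, a glutathione transferase, averaged 671 ± 91.7 FPKM in knockout and 330 ± 63.2 FPKM in wild-type livers (SD, n = 3 libraries each, log2 difference 1.03, limma adjusted p = 0.108). Ces2a, a carboxylesterase, averaged 223 ± 30.3 FPKM in knockout and 114 ± 35.1 FPKM in wild-type livers (0.997, limma adjusted p = 0.177). Cyp2c55 had a difference of 1.40 and Cyp3a13 of 0.73, both with groups that did not overlap (limma adjusted p = 0.259 and 0.248). Groups did not overlap for 6 of the 20 targets, beside 16.6% of all genes tested. Outside the 4 genes of lowest p, and chosen after their values were seen, the standard marker genes of the pair lay the other way. Cyp3a11, the main mouse CYP3A enzyme, was at 2615, 2242 and 3040 FPKM in knockout and 4443, 4067 and 3424 FPKM in wild-type libraries, which do not overlap (-0.60, limma adjusted p = 0.33). Cyp2b10, the usual readout of CAR, was at 32.8, 62.4 and 158 FPKM in knockout and 117, 190 and 179 FPKM in wild-type libraries, with ranges that overlapped (-1.19, limma adjusted p = 0.48). The knockout library with the lowest Nr1i3, replicate 1, also had the lowest Cyp2b10, but targets went both ways in it. In that library Por was at 118 FPKM, the lowest of the 6, and Cyp2c55 at 37.0 FPKM, the highest of the 6. A link between Nr1i3 and its targets was not tested. Cyp2b10, Cyp3a11, Gsta2 and Ces2a have close paralogs, among which the authors' estimates may split reads, and their values are uncertain to that extent.

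Of the sterol and bile acid regulators, Nr1h3 encodes LXR-alpha, the oxysterol receptor that drives cholesterol export and fatty acid synthesis (chromosome 2, 91184061 to 91202834). It was at 43.7, 78.6 and 77.9 FPKM in knockout libraries, against 44.6, 60.1 and 68.3 FPKM in wild-type libraries. As with Nr1i2, replicate 1 was lowest in each genotype and nearly equal between them. For Nr1h3 the log2 difference was 0.18 (SE 0.28, interval -0.47 to 0.83, limma adjusted p = 0.845), with -0.03 in replicate 1 and 0.28 in replicates 2 and 3. The library number term narrowed the interval to -0.12 to 0.48. The related Nr1h2, which encodes LXR-beta, was at 29.0, 28.8 and 26.3 FPKM in knockout and 38.2, 31.5 and 31.5 FPKM in wild-type libraries, which do not overlap (log2 difference -0.25, limma adjusted p = 0.554). Nr1h3 exceeded it in every library, by 1.51 to 2.96 times in knockout and 1.17 to 2.17 times in wild type.

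LXR targets did not pass the test either: of 14 tested, 0 rose and 0 fell, with 9 above 0 and a median of 0.15. Abcg5 and Abcg8, whose products together export sterols into bile, had differences of 0.89 and 0.74 (limma adjusted p = 0.388 and 0.48). Abcg5 was at 34.0, 58.9 and 62.5 FPKM in knockout and 40.6, 20.2 and 22.7 FPKM in wild-type libraries, so the knockout was lower in replicate 1 and higher in replicates 2 and 3. In libraries L0602 to L0605 alone its difference was 1.46 and passed (limma adjusted p = 0.0475). Lpcat3, a phospholipid remodelling enzyme, and Arl4c, a small GTPase, had differences of -0.36 each (limma adjusted p = 0.505 and 0.481).

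Nr5a2 encodes LRH-1, which acts as a monomer and supports bile acid synthesis (chromosome 1, 136842571 to 136960448). It was at 8.18, 9.41 and 9.63 FPKM in knockout libraries, against 6.42, 8.04 and 9.76 FPKM in wild-type libraries. The wild-type range enclosed the knockout range. On the log2 scale the difference was 0.16 (SE 0.17, interval -0.25 to 0.58, limma adjusted p = 0.773), 0.31 in replicate 1 and 0.09 in replicates 2 and 3. All 10 tested LRH-1 targets, of which Abcg5, Abcg8 and Cyp7a1 are also LXR targets, had a positive difference, with a median of 0.64 beside the 0.0034 of all genes, but 0 rose and 0 fell by limma and 2 had an unadjusted p under 0.05, which 11.1% of all genes had. Cyp8b1, the sterol 12-alpha-hydroxylase, was at 8.12, 4.98 and 16.2 FPKM in knockout and 2.74, 0.809 and 0.451 FPKM in wild-type libraries, which do not overlap (log2 difference 2.19, SE 0.48, limma adjusted p = 0.147). Cyp7a1, the rate-limiting enzyme of bile acid synthesis, was at 7.10, 6.60 and 17.2 FPKM in knockout and 12.9, 1.15 and 1.80 FPKM in wild-type libraries (1.25, limma adjusted p = 0.588). As for Abcg5, its difference was negative in replicate 1 and positive in replicates 2 and 3.

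Rxra encodes the retinoid X receptor that pairs with most of the other members (chromosome 2, 27676440 to 27762957). Its level was 46.3, 56.1 and 68.5 FPKM in knockout libraries and 51.4, 49.5 and 47.0 FPKM in wild-type libraries. The wild-type values were close together and lay within the knockout range. The log2 difference was 0.19 (SE 0.17, interval -0.21 to 0.59, limma adjusted p = 0.724), with -0.15 in replicate 1 and 0.36 in replicates 2 and 3. Rxra made up a fraction of 0.745 to 0.815 of the summed FPKM of Rxra, Rxrb and Rxrg in knockout and 0.751 to 0.796 in wild-type libraries. The 7 members that use it as a partner summed to 2.46, 3.83 and 3.32 times the level of Rxra in knockout and 3.07, 3.32 and 4.27 times in wild-type libraries, again with overlapping ranges.

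**Figure D2:**
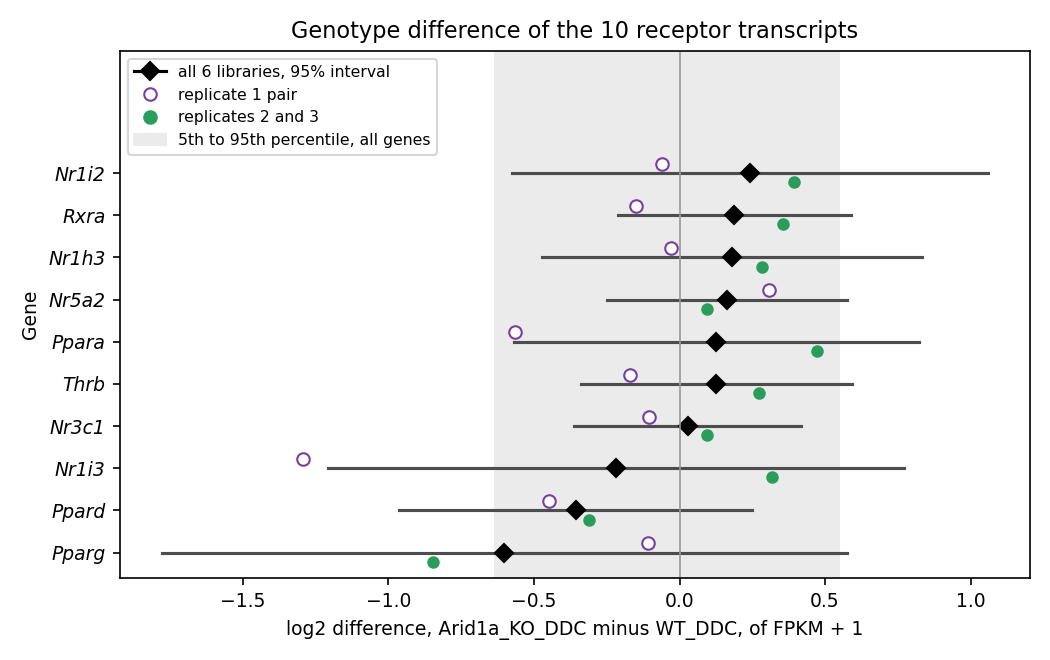
The log2 difference of each receptor transcript, knockout minus wild type on the log2(FPKM + 1) scale, with its 95% limma interval (diamond and line), the difference of the replicate 1 pair (open circle) and that of replicates 2 and 3 (filled green circle). The shaded band runs from -0.64 to 0.55, the 5th to 95th percentile of all genes tested, and every interval of this fit, which has no term for the library number, includes 0.

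The PPAR genes encode fatty acid receptors. Ppara, the driver of fatty acid oxidation in fasted liver (chromosome 15, 85734983 to 85802819), was at 2.23, 1.92 and 3.39 FPKM in knockout libraries, against 3.77, 1.58 and 1.57 FPKM in wild-type libraries. Wild-type replicate 1 was the highest of the 6. The log2 difference was 0.13 (SE 0.29, interval -0.57 to 0.82, limma adjusted p = 0.906), and it was -0.57 in replicate 1 and 0.47 in replicates 2 and 3. Without knockout replicate 3, wild-type replicate 2 or wild-type replicate 3 the difference was negative and near 0.

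Of 24 tested PPAR-alpha targets 1 rose and 0 fell, where 0.135% of all genes rose and 0.355% fell, with 17 differences above 0 and a median of 0.27. The target that rose was Fabp1, the abundant fatty acid carrier of the hepatocyte cytosol, at 4202, 4297 and 3878 FPKM in knockout and 961, 1573 and 1389 FPKM in wild-type libraries (log2 difference 1.69, SE 0.22, limma adjusted p = 0.0381). Its adjusted p was 0.05003 to 0.153 when any 1 of the 6 libraries was left out, with differences of 1.48 to 1.83. Acaa1b, a peroxisomal thiolase, had a difference of 1.27, Vnn1, a pantetheinase, of 1.45 and Cyp4a31, a fatty acid hydroxylase, of 0.98, all with groups that did not overlap (limma adjusted p = 0.0982, 0.157 and 0.341). Groups did not overlap for 6 of the 24 targets, beside 16.6% of all genes tested. Acaa1b and Cyp4a31 have near-identical paralogs, so their values are uncertain.

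Ppard, which encodes the broadly expressed PPAR-delta (chromosome 17, 28232700 to 28301474), had the smallest p of the members. It was at 3.62, 4.92 and 4.19 FPKM in knockout libraries, against 5.31, 3.95 and 8.54 FPKM in wild-type libraries. Wild-type replicate 3 was the highest, and wild-type replicate 2 lay inside the knockout range. Its log2 difference was -0.36 (SE 0.26, interval -0.96 to 0.25, limma adjusted p = 0.66 and exact permutation p = 0.3), and it was negative in replicate 1 (-0.45) and in replicates 2 and 3 (-0.31). Without wild-type replicate 3 it was -0.10. Fam20c, Dennd4b and Ly86 were the tested genes whose centred log2 profiles over the 6 libraries lay nearest to that of Ppard. Their root mean square distances were 0.09, 0.10 and 0.11. Each was highest in wild-type replicate 3, which follows from choosing genes by their likeness to Ppard.

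Pparg encodes PPAR-gamma, the receptor of adipocyte differentiation, which in liver is also expressed in macrophages and endothelial cells and in fat-laden hepatocytes (chromosome 6, 115360951 to 115490399). It had the largest difference of the 10, and its level was 11.2, 3.89 and 2.27 FPKM in knockout libraries and 12.1, 6.56 and 5.86 FPKM in wild-type libraries. Replicate 1 was highest in both genotypes, and within replicates 2 and 3 both knockout libraries lay below both wild-type ones. Its log2 difference was -0.60 (SE 0.50, interval -1.78 to 0.58, limma adjusted p = 0.705), -0.11 in replicate 1 and -0.85 in replicates 2 and 3, where the limma adjusted p was 0.186. The library number term gave an interval of -1.17 to -0.03, which excludes 0, with a limma adjusted p of 0.276 over all genes. It was -1.14 without knockout replicate 1 and -0.19 without knockout replicate 3. Its nearest profiles were those of Egln3, Fgfrl1 and Fhl3, at distances of 0.09, 0.20 and 0.20. Egln3, a prolyl hydroxylase of hypoxia-inducible factors, was at 9.20, 2.72 and 2.05 FPKM in knockout and 9.85, 4.91 and 4.92 FPKM in wild-type libraries. It was highest in replicate 1 of each genotype, which follows from choosing genes by their likeness to Pparg. The ratio of Pparg to Ppara was 5.01, 2.03 and 0.67 in knockout and 3.21, 4.14 and 3.72 in wild-type libraries.

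Most markers of other liver cell types had negative differences, like Pparg. Of 7 tested macrophage markers 6 had a negative difference, 0 rose and 0 fell, and the 8 in the table summed to 352 to 522 FPKM in knockout and 506 to 755 FPKM in wild-type livers. Stellate cell markers were negative in 6 of 8 and summed to 128 to 211 FPKM in knockout and 190 to 287 FPKM in wild-type livers, and endothelial markers were negative in 7 of 7 and summed to 29.2 to 76.1 FPKM in knockout and 51.2 to 82.8 FPKM in wild-type livers. None of these markers was at 0 in any library. Biliary markers were negative in 6 of 7, and 1 of them, the tight junction gene Cldn4, fell (-1.42, limma adjusted p = 0.0386), as 0.355% of all genes did. The T and NK cell, B cell and neutrophil markers tested, 4, 4 and 3, were all negative and none passed the test. The B cell markers were uneven between knockout libraries. They summed to 20.2, 7669 and 23.9 FPKM in knockout replicates 1, 2 and 3 and to 1526, 4102 and 5513 FPKM in the wild-type replicates. Of the adipocyte markers only Fabp4 was in the table, at 11.5, 7.95 and 4.62 FPKM in knockout and 11.0, 8.57 and 10.5 FPKM in wild-type libraries. The 9 hepatocyte markers in the table summed to 44900 to 55360 FPKM in knockout and 42400 to 44860 FPKM in wild-type livers, so the labelled tissue carried its defining markers. The part of these shifts in the Pparg difference was not tested.

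Of 7 tested PPAR-gamma targets 0 rose and 0 fell, with a median of -0.24. Lpin1, a phosphatidate phosphatase, had a difference of 1.02 and groups that did not overlap (limma adjusted p = 0.426). Plin4, a lipid droplet protein, and Fabp4 had differences of -0.55 and -0.36, and Cd36, a fatty acid translocase, of 0.28 (limma adjusted p = 0.603, 0.698 and 0.648).

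Of the hormone receptors, Thrb encodes the main thyroid hormone receptor of hepatocytes (chromosome 14, 17660261 to 18038090). It was at 2.23, 3.28 and 3.87 FPKM in knockout libraries, against 2.63, 2.40 and 3.18 FPKM in wild-type libraries. Knockout replicate 1 was the lowest and the other 2 knockout libraries the highest. The log2 difference was 0.13 (SE 0.20, interval -0.34 to 0.59, limma adjusted p = 0.851), -0.17 in replicate 1 and 0.27 in replicates 2 and 3. The related Thra was at 6.18, 2.46 and 2.59 FPKM in knockout and 7.01, 4.42 and 4.01 FPKM in wild-type libraries. In this bulk tissue Thra lay above Thrb in every wild-type library and in knockout replicate 1, and below it in knockout replicates 2 and 3. Of 9 tested thyroid hormone targets 0 rose and 0 fell, with a median of -0.08. Hr, a corepressor gene induced by thyroid hormone, was at 0.57, 0.418 and 0.485 FPKM in knockout and 1.75, 1.07 and 1.48 FPKM in wild-type libraries, which do not overlap (-0.70, limma adjusted p = 0.19). Me1, the malic enzyme, and Gpd2, a glycerol phosphate dehydrogenase, had differences of 0.40 and 0.16 (limma adjusted p = 0.477 and 0.749).

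Nr3c1, the glucocorticoid receptor gene (chromosome 18, 39410545 to 39519421), had the smallest difference of the 10. It was at 6.60, 5.76 and 6.46 FPKM in knockout libraries, against 7.18, 4.93 and 6.46 FPKM in wild-type libraries. The log2 difference was 0.03 (SE 0.16, interval -0.36 to 0.42, limma adjusted p = 0.966), with -0.11 in replicate 1 and 0.09 in replicates 2 and 3. As a ratio of FPKM + 1 the interval runs from 0.778 to 1.34 times wild type. This was the narrowest interval of the 10. Of 16 tested glucocorticoid targets 0 rose and 0 fell, with a median of -0.17. Tdo2, a tryptophan dioxygenase, averaged 672 ± 326 FPKM in knockout and 321 ± 52.5 FPKM in wild-type livers (SD, n = 3 libraries each, log2 difference 0.95, limma adjusted p = 0.411). Mt2, a metallothionein, averaged 1357 ± 1086 FPKM in knockout and 2999 ± 656 FPKM in wild-type livers (-1.47, limma adjusted p = 0.433). Igfbp1, an insulin-like growth factor binding protein, and Dusp1, a phosphatase, had differences of -0.61 and -0.72 (limma adjusted p = 0.5 and 0.53).

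**Figure D3:**
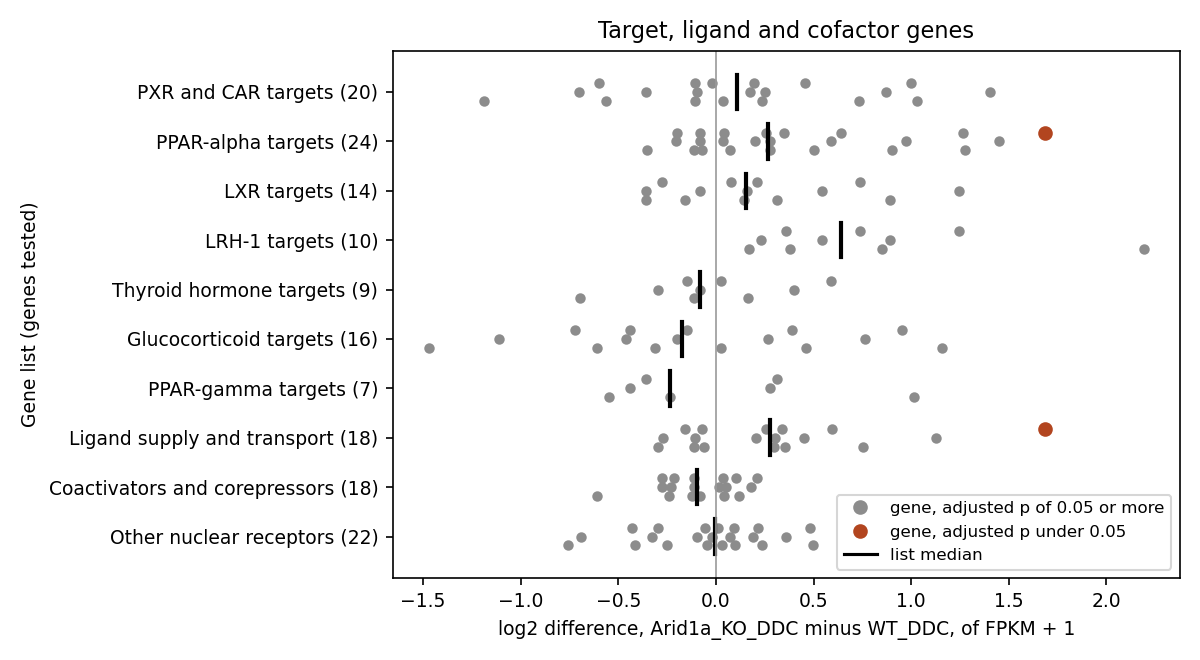
The log2 difference, knockout minus wild type on the log2(FPKM + 1) scale, of each tested gene in the 10 lists of receptor targets, ligand supply, cofactors and other nuclear receptors, with the list median as a black bar and the number tested in brackets. The single gene past the threshold, in red, is Fabp1, which is on 2 lists, and the medians run from -0.24 for PPAR-gamma targets to 0.64 for LRH-1 targets.

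Among ligand carriers, cofactors and the other nuclear receptors the single gene past the threshold was again Fabp1. Of 18 genes of ligand supply and transport 1 rose and 0 fell (0.135% and 0.355% of all genes), with a median of 0.28. Ttr, a thyroid hormone and retinol carrier of plasma, and Serpina6, the corticosteroid-binding globulin, had differences of 0.60 and 1.12 (limma adjusted p = 0.315 and 0.531). Of 18 coactivators and corepressors 0 rose and 0 fell, with a median of -0.10. Gps2 and Hdac3, members of corepressor complexes, had differences of -0.28 and -0.22, Nrip1, a corepressor, of -0.28 and Ncoa1, a steroid receptor coactivator, of -0.23 (limma adjusted p = 0.574, 0.613, 0.609 and 0.636). Of 22 other nuclear receptors 0 rose and 0 fell, with a median of -0.0041 and 11 on each side of 0. The retinoic acid receptor genes Rarg and Rara had differences of -0.76 and -0.33 and the orphan receptor Nr4a1 of -0.69, each lower in all 3 knockout than in all 3 wild-type libraries, and Nr2f2, which encodes COUP-TFII, of 0.48 (limma adjusted p = 0.249, 0.447, 0.32 and 0.544). Groups did not overlap for 4 of these 22 receptors, near the 16.6% of all genes tested.

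In some members replicate 1 stood apart in both genotypes. For Nr1i2, Nr1h3, Pparg and Nr3c1, 4 of the 10, both replicate 1 libraries lay outside the range of the other 4 libraries, as they did for 28.4% of all genes tested. Nr1i2 was at 25.9 and 27.1 FPKM in replicate 1 and at 40.8 to 56.9 FPKM in the other libraries, and Nr1h3 at 43.7 and 44.6 FPKM against 60.1 to 78.6 FPKM. Pparg ran the other way, at 11.2 and 12.1 FPKM against 2.27 to 6.56 FPKM. On the log2 scale replicate 1 minus the rest came to -0.87 for Nr1i2, -0.67 for Nr1h3, 1.23 for Pparg and 0.20 for Nr3c1. Cell type markers moved in both directions in replicate 1. All 8 endothelial and all 8 macrophage markers in the table had a positive difference of replicate 1 minus the rest, with medians of 0.64 and 0.36, and 3 endothelial and 2 macrophage markers lay above the other 4 libraries in both replicate 1 libraries. The endothelial markers summed to 76.1 and 77.5 FPKM in replicate 1 of knockout and wild type and to 29.2 to 82.8 FPKM in the other 4, and the macrophage markers to 522 and 755 FPKM against 352 to 551 FPKM. Fabp4, the adipocyte marker in the table, was at 11.5 and 11.0 FPKM in replicate 1 and 4.62 to 10.5 FPKM in the others. Of the stellate cell markers 7 of 8 were higher in replicate 1. Lower were 7 of 9 hepatocyte markers (median -0.20), 7 of 7 biliary, 4 of 4 B cell, 4 of 6 T and NK cell and 3 of 4 neutrophil markers. The part of any cell type in the Pparg shift was not tested. For each of the 4 receptors the shift exceeded the genotype difference in size, which their choice by that shift makes likely. The nuclear receptor gene Nr1d1, which encodes the clock repressor REV-ERB-alpha, was at 24.3 and 57.9 FPKM in replicate 1 of knockout and wild type and at 1.68 to 2.08 FPKM in the other 4 libraries. The library numbers, the Y-linked transcripts and Nr1d1 all split the libraries in the same way, so what goes with each of them cannot be told apart.

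**Figure D4:**
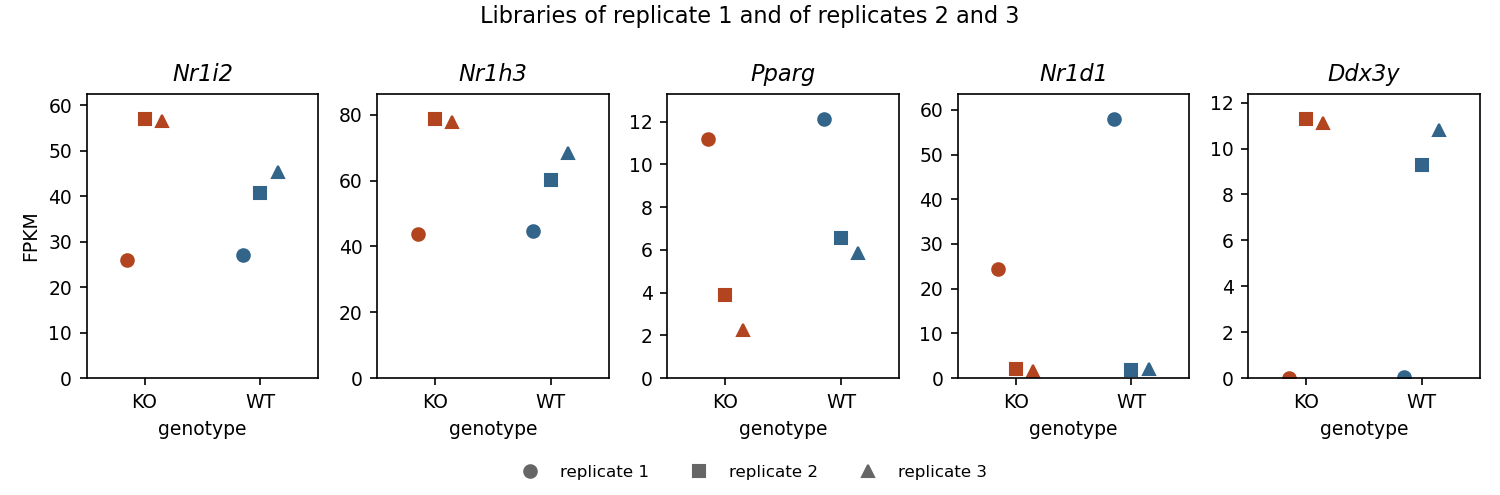
FPKM of 3 receptor transcripts, of the clock receptor Nr1d1 and of the Y-linked Ddx3y in each library (axes start at 0, knockout left of wild type, symbol by replicate). The replicate 1 circles sit below the other libraries for Nr1i2, Nr1h3 and Ddx3y and above them for Pparg and Nr1d1, in both genotypes.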

How the data were processed

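The 6 libraries were grouped by their titles. The authors deposited 1 table of log2 FPKM, 1 column per library, made with TopHat2 2.0.6 and Cufflinks on mm10 and GRCm38, per the submitters' processing notes; no source used here gives the roles of these tools, the annotation or the choice of genes. An FPKM of 0 stands at -10, since 0.000977 had been added to each FPKM. With this offset subtracted, 100% of 60069 values between 1 and 50 FPKM had 6 significant digits within a relative tolerance of 3e-08, against 0% before. An FPKM of 0 can be a failed estimate.

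FPKM are not counts, so log2(FPKM + 1) was tested, which understates changes of low genes, for 11839 genes with at least 1 FPKM in at least 3 libraries. Genotypes were compared with limma 3.58.1 (R 4.3.3; eBayes with trend, two-sided, Benjamini-Hochberg over all genes tested, threshold 0.05). Errors are limma standard errors, or SD over 3 libraries. No counting intervals are given, since depth is unknown. Positions are from GENCODE M21 (GRCm38) and start-site sequences from RefSeq. Exact permutation tests used scipy 1.17.1.

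The members and lists were chosen with earlier results of these data known. The genes named are all members and, of each list, the 4 with the smallest p and any past the threshold; of genes like a member in profile, the 3 nearest with an SD within 1.5 times. Of these, 1 list gene is not reported here. Other names were chosen after their values were seen. Lists were described and not tested. Alternatives were other pseudocounts, filters, scalings and eBayes settings, a replicate block, a library number term, libraries L0602 to L0605 alone, and leaving out each library.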

Additional observations from a re-analysis of the deposited data

Results flagged for a closer look

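For 5 receptor genes the knockout minus wild-type difference was negative in replicate 1, with 1 library per genotype, and positive in replicates 2 and 3, where the genotypes did not overlap, as 10.6% of all genes tested did. The ranges in replicates 2 and 3 did not overlap for 51.8% of all genes. The gap between these differences on the log2 scale, replicate 1 minus replicates 2 and 3, was -0.45 for Nr1i2, -0.31 for Nr1h3, -0.51 for Rxra, -1.04 for Ppara and -0.44 for Thrb. In replicate 1 the differences of Nr1i2 and Nr1h3 were themselves near 0, at -0.06 and -0.03. The same was seen for the target genes Abcg5 with a gap of -1.71, Abcg8 with -1.68 and Cyp7a1 with -3.05. It was the other way for Plin4 and Fabp4, whose gaps were 1.02 and 0.62. Whether the genotype differences differ between these libraries was not tested.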

How the results depend on the processing

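The count of receptor genes past the threshold was 0 in limma under all 17 alternatives, and the lowest adjusted p of any member in any of them was 0.186, for Pparg in libraries L0602 to L0605. Members at an unadjusted p under 0.05 numbered 1 with the replicate block and 1 with the library number term, 2 in libraries L0602 to L0605 and 2 without Arid1a_KO_DDC replicate 1 (14.5%, 16.9%, 18.1% and 16.8% of all genes), and 0 otherwise. The 58 genes past the threshold overall became 12 with no filter, 0 with the replicate block (1718 at an unadjusted p under 0.05) and 92 with the library number term, and ranged from 0 to 67 when 1 library was left out. That count was 0 without Arid1a_KO_DDC replicate 3 (918 at an unadjusted p under 0.05), 35 without WT_DDC replicate 1, 6 without WT_DDC replicate 2 and 2 without WT_DDC replicate 3. The replicate numbers were not taken as pairs: the deviations of same-numbered libraries from their genotype means correlated at 0.35, 0.13 and 0.02 for numbers 1, 2 and 3. Of the member differences 159 kept their sign and 8 did not. Nr1i3 was at 0.32 in libraries L0602 to L0605 and 0.28 without Arid1a_KO_DDC replicate 1, in a range of -0.54 to 0.28 over the libraries left out. Ppara, with a range of -0.046 to 0.42, was at -0.046 without Arid1a_KO_DDC replicate 3 and at -0.02 without WT_DDC replicate 2 (-0.0203) or WT_DDC replicate 3 (-0.0231). Thrb, with a range of -0.0037 to 0.29, was at -0.0037 without Arid1a_KO_DDC replicate 3, and Nr3c1, with a range of -0.10 to 0.13, was at -0.0048 without Arid1a_KO_DDC replicate 1 and -0.10 without WT_DDC replicate 2. The causes were not tested. A filter at 5 FPKM left Ppara, Ppard and Thrb without a value. Of the 36 other genes named by the rule none changed sign. Fabp1 no longer passed with no filter (limma adjusted p = 0.11), with the replicate block (0.0819) or without any 1 library, and Ces2a (0.0475, libraries L0602 to L0605), Abcg5 (0.0475, the same libraries), Cyp2c55 (0.0282, library number term) and Acaa1b (0.0476, library number term) passed in 1 alternative each.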

Other observations

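Of 6 clock genes chosen after their values were seen, 4 set replicate 1 apart as Nr1d1 did and 2 did not. Dbp, a clock output factor, was at 16.1, 3.38 and 5.66 FPKM in knockout and 25.6, 1.55 and 1.35 FPKM in wild-type libraries. Nr1d2, a paralog of Nr1d1, was at 6.71, 3.43 and 5.29 FPKM in knockout and 9.68, 1.99 and 1.40 FPKM in wild-type libraries. Cry1, a clock repressor, ran the other way, at 2.04, 8.81 and 10.1 FPKM in knockout and 2.29, 10.1 and 15.4 FPKM in wild-type libraries, and so did Per2, at 2.45, 9.84 and 10.6 FPKM in knockout and 2.36, 3.19 and 10.6 FPKM in wild-type libraries. Arntl and Npas2, which encode activators of the clock, did not set replicate 1 apart. Arntl was at 5.09, 4.62 and 4.47 FPKM in knockout and 7.38, 7.30 and 8.65 FPKM in wild-type libraries (log2 difference -0.61, limma adjusted p = 0.153). Npas2 was at 1.34, 0.513 and 0.204 FPKM in knockout and 1.83, 2.94 and 3.16 FPKM in wild-type libraries (-1.15, limma adjusted p = 0.204). For both, every knockout library lay below every wild-type library, and the groups did not overlap for 16.6% of all genes tested.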
